A study of Mus musculus with 3 samples.

Results

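The genes described here are enzymes of cholesterol and fatty acid synthesis and regulators, all in the pathway of sterol regulatory element-binding proteins (SREBPs). They were followed across 3 RNA-seq libraries of cultured mouse cortical neurons. The 33 genes were taken by name from a list of pathway members, out of 54232 gene identifiers in the count files, and were sorted by step into 7 mevalonate genes, 11 sterol genes, 6 regulators and 9 fatty acid genes. All 33 reached 1 CPM (counts scaled to a common library size) in at least 1 library and so were among the 13884 genes compared. The list does not hold every known SREBP target. It was chosen with earlier results of these data known, so the shares given below describe these libraries and are not independent support.

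All 3 libraries came from wildtype cortical neurons labelled CD1, an outbred mouse stock, and each is the only library of its group. The first, IKVAV PA + PEDOT-S, is from neurons given a peptide amphiphile (PA), a peptide that assembles into fibres and here carries IKVAV, a short laminin sequence, together with an additive. Its library name calls the additive PEDOT-S_OH and its title calls it PS2, which are taken here to be the same conducting polymer. The second, IKVAV PA, is from neurons given the peptide material without that additive. The third, PDL control, carries a name usually short for poly-D-lysine, a common culture coating, although the labels do not spell it out and their treatment field reads peptide amphiphile for all 3. Age, days in culture and the number of animals pooled are not given in the labels. With 1 library per group there is no measure of the spread between cultures, no test was made, and every difference below describes these libraries and not the conditions. Depth was 79057998 counts for the PEDOT-S library, 124425958 for the IKVAV PA library and 78993105 for the PDL library, and the least abundant of the 33 genes, Ebp, still had 815 counts or more in each.

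Cells make cholesterol and fatty acids from acetyl-CoA. When the endoplasmic reticulum is short of cholesterol, Scap carries the SREBPs to the Golgi apparatus, where they are cut to release a transcription factor, and when it is replete the Insig proteins hold Scap and the SREBPs back. Srebf2 mostly serves the cholesterol genes and Srebf1 the fatty acid genes. The brain makes its own cholesterol, since lipoprotein cholesterol does not cross the blood-brain barrier, and in culture neurons, astrocytes and oligodendrocytes can all express these enzymes.

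The PEDOT-S library had the highest level of the 3 for 30 of the 33 genes, which is 90.9% of them, against 36.6% of all genes compared. The 3 exceptions were Insig2 and Srebf1, highest in the PDL library, and Scap, highest in the IKVAV PA library. Summed over the 33 genes, the level was 11524 CPM in the PEDOT-S library, 9293 CPM in the IKVAV PA library and 8971 CPM in the PDL library. The genes held 1.14% of all counts in the PEDOT-S library, 0.931% in the IKVAV PA library and 0.905% in the PDL library. The sums of both libraries without the additive thus lay close together, and the PEDOT-S library stood above both.

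**Figure D1:**
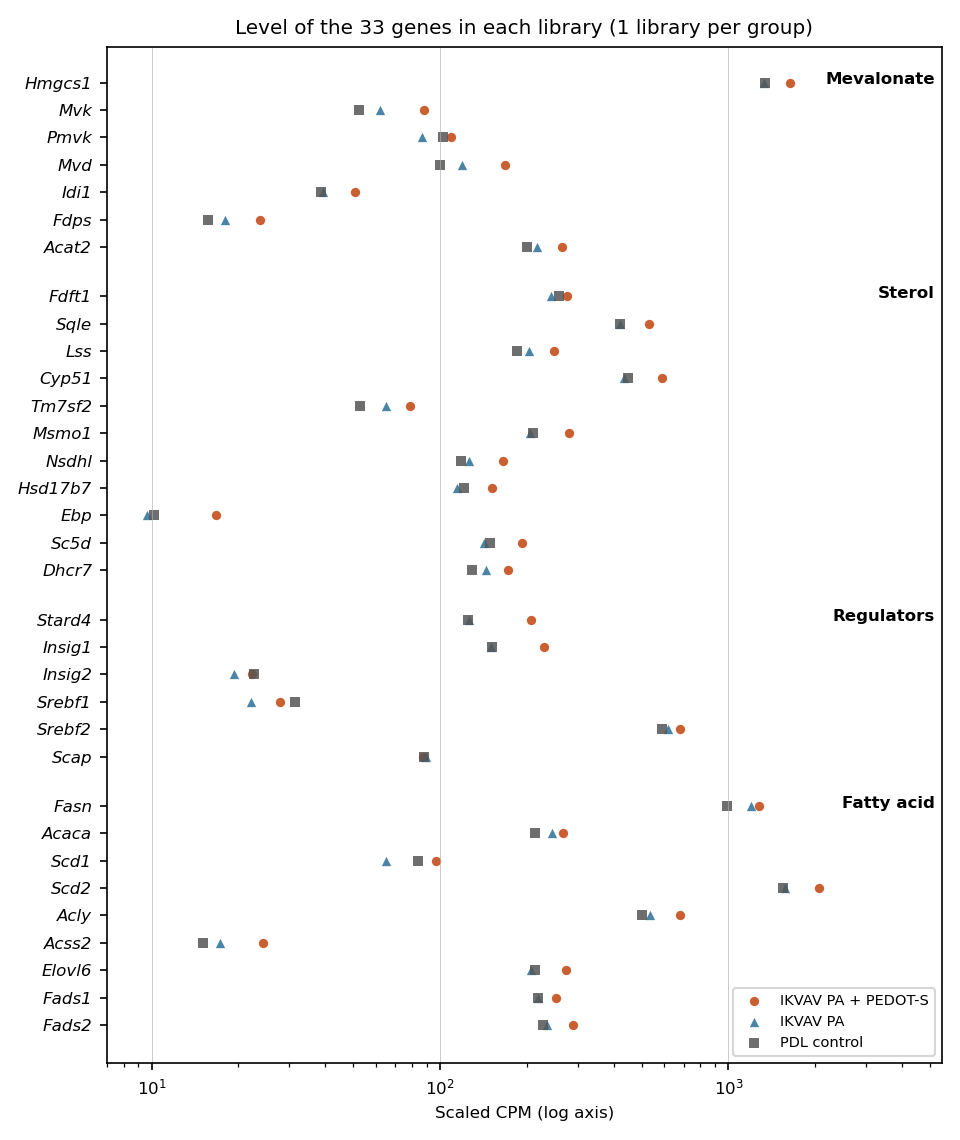
Level of each of the 33 genes in scaled CPM on a log axis, with 1 point per library and genes sorted by step. The PEDOT-S points lie farthest right for 30 genes, and for many genes, Hmgcs1, Sqle and Stard4 among them, the IKVAV PA and PDL points nearly coincide.

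Each difference is given as the log2 ratio of scaled counts with a 95% counting interval, which covers counting error only. A gene was called higher or lower where its whole interval lay past a 1.5-fold difference. Against PDL, the PEDOT-S library had 4 of the 33 genes called higher, against 0.447% of all genes compared, and 0 called lower, against 3.75% of all genes. With the bound loosened so that one level need be only 25% above the other, 21 of the 33 were higher, against 1.87% of all genes, and 0 were lower, against 6.6%. Intervals lay clear of no difference for 30 genes that were higher, against 28.6% of all genes, and for 1 that was lower, against 28.5%. The 33 genes had a median level of 161 CPM averaged over the libraries, against 23.9 CPM for all genes compared. Their counting intervals thus tend to be narrower and to clear a bound more readily, so the shares are not like for like. The median log2 ratio of the 33 genes was 0.39, and that of all genes was -0.00. By step the medians were 0.39 for the mevalonate genes, 0.41 for the sterol genes, 0.09 for the regulators and 0.36 for the fatty acid genes.

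Between IKVAV PA and PDL, 0 of the 33 genes were called higher, against 0.54% of all genes, and 0 were called lower, against 3.41%. At the 25% bound 0 genes were higher, against 2.11% of all genes, and 2, Scd1 and Srebf1, were lower, against 5.73%. Intervals lay clear of no difference for 15 higher genes, against 28.1% of all genes, and for 10 lower genes, against 28.9%, so the 33 genes had no common direction there. The median log2 ratio of the 33 was 0.02, and that of all genes was 0.00. Between the scaffolds, PEDOT-S over IKVAV PA, 2 of the 33 were called higher, against 0.339% of all genes, and 0 lower, against 2.02%. At the 25% bound 15 were higher, against 1.56% of all genes, and 0 lower, against 4.83%. Intervals lay clear of no difference for 32 higher genes, against 31.4% of all genes, and for 0 lower genes, against 28.5%. The median was 0.36 for the 33 genes and 0.01 for all genes. The comparisons with PDL share the PDL library, and both comparisons of PEDOT-S share the PEDOT-S library, so they do not count as separate observations.

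**Figure D2:**
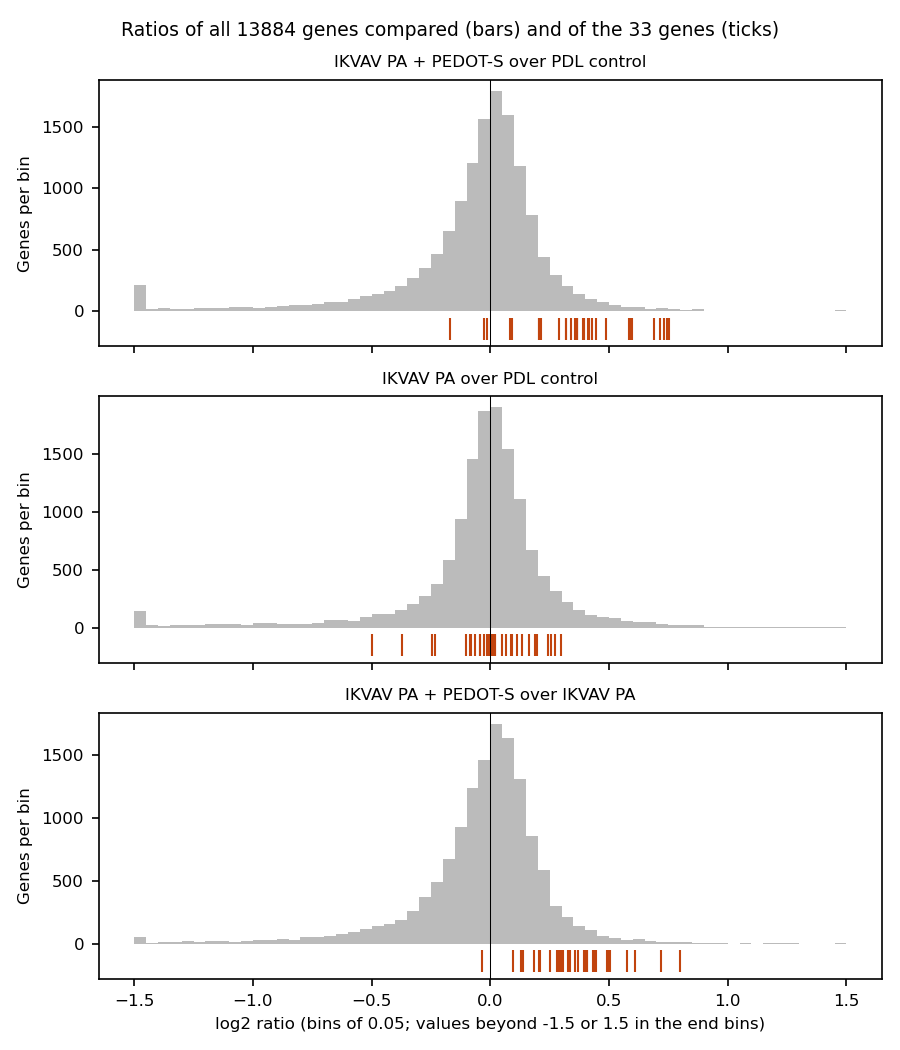
Histograms of the log2 ratio over all 13884 genes compared (bars, genes per bin) with the 33 genes as ticks below, 1 panel per comparison. The ticks centre on a median of 0.39 for PEDOT-S over PDL, 0.02 for IKVAV PA over PDL and 0.36 for PEDOT-S over IKVAV PA.

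Among the mevalonate genes, which turn acetyl-CoA into isoprenoid units, Mvk and Mvd rose in the PEDOT-S library relative to PDL. Mvk, the mevalonate kinase, was at 88.1 CPM in the PEDOT-S library, 62.2 CPM in the IKVAV PA library and 52.6 CPM in the PDL library. Its log2 ratio of PEDOT-S over PDL was 0.75 (interval 0.69 to 0.80), or 1.68-fold. Mvd, the decarboxylase that ends the mevalonate section, was at 168 CPM in the PEDOT-S library, 119 CPM in the IKVAV PA library and 99.7 CPM in the PDL library. It had the highest ratio of the 33 genes, 0.75 (0.71 to 0.79) or 1.69-fold, and 0.569% of all genes compared had a larger one. For both genes the IKVAV PA library lay between the others, with log2 ratios over PDL of 0.24 (0.19 to 0.30) for Mvk and 0.26 (0.22 to 0.30) for Mvd. Neither was called between the scaffolds, where the PEDOT-S library was higher by 0.50 (0.46 to 0.55) for Mvk and by 0.50 (0.46 to 0.53) for Mvd.

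The identifier of Mvk is ENSMUSG00000041939, at chr5:114444269-114460591 on the plus strand, and that of Mvd is ENSMUSG00000006517, at chr8:122433601-122443422 on the minus strand (GRCm38, GENCODE M21). The promoters of Mvd, Mvk and Ebp are shown because these genes had the largest called ratios among those with a promoter in the RefSeq table. The promoter of Hmgcs1, the HMG-CoA synthase, is added because, of the windows used, it alone held a sterol response element core. That choice was made after its values were seen. Each line gives the 250 bases before the annotated start in GRCm38.p6, read along the gene. The windows are chr8:122443423-122443672 (minus) for Mvd, chr5:114444019-114444268 (plus) for Mvk, chrX:8193513-8193762 (minus) for Ebp and chr13:119690101-119690350 (plus) for Hmgcs1. Capitals mark matches on either strand to CCAAT (the NF-Y box), GGGCGG (the GC box), CACGTG (an E-box) and TCACNCCAC (the core of the sterol response element, where SREBPs bind).
Mvd: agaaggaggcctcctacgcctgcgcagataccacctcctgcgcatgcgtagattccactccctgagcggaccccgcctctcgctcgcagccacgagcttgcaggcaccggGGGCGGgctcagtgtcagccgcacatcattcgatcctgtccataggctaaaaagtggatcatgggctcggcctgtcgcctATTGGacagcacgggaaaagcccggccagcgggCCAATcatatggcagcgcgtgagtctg
Mvk: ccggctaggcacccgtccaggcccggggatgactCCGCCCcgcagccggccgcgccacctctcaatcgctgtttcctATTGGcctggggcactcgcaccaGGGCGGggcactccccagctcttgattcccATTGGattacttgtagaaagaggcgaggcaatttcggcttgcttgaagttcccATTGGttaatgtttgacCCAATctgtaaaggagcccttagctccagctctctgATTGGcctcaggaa
Ebp: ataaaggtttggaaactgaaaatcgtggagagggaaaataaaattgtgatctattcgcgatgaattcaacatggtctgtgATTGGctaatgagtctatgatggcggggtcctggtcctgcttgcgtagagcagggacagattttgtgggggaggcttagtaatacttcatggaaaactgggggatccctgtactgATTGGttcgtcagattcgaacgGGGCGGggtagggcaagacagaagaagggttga
Hmgcs1: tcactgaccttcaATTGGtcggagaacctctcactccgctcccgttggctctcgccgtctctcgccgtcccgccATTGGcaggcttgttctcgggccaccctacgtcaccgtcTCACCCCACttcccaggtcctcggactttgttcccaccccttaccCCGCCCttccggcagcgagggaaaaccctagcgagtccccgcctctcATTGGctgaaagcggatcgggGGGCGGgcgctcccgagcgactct

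The windows of Mvd, Mvk and Ebp each hold CCAAT boxes on one or both strands and at least 1 GC box. In the Mvd window the CCAAT boxes end 56 and 23 bases before the start, and in Ebp they end 166 and 51 bases before it. Hmgcs1 holds the sterol response element core 137 to 129 bases before its start, between CCAAT boxes on either side. Windows of the 33 genes on chromosome 18 were left out, whereas the shares over all genes given next keep chromosome 18. The shares are not like for like in this respect. RefSeq windows were used for 26 of the 33 genes. Of these, 20 held CCAAT, which is 76.9%, against 37.5% of all 27025 genes with a window and 40.7% of those among the genes compared. GGGCGG was in 22 of 26, or 84.6%, against 35.4% of all and 65.1% of genes compared, and CACGTG was in 5, or 19.2%, against 6.86% and 9.95%. The core TCACNCCAC was in Hmgcs1 alone, 3.85% of the 26, against 1.22% of all genes with a window. These are letter matches in short windows and not measured binding. In the windows shown no match overlaps another.

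Hmgcs1, which makes HMG-CoA, was the most abundant mevalonate gene, at 1635 CPM in the PEDOT-S library, 1331 CPM in the IKVAV PA library and 1338 CPM in the PDL library. Its ratio of PEDOT-S over PDL was 0.29 (0.28 to 0.30) and that of IKVAV PA over PDL was -0.01 (-0.02 to 0.00), so the levels of both libraries without the additive differed by no more than counting error. Acat2, a thiolase that joins acetyl-CoA units, was at 264 CPM in the PEDOT-S library, 217 CPM in the IKVAV PA library and 201 CPM in the PDL library. Idi1, the isomerase of the isoprenoid units, was at 50.7 CPM in the PEDOT-S library, 39.3 CPM in the IKVAV PA library and 38.7 CPM in the PDL library. Acat2 and Idi1 both had a ratio of 0.39 over PDL in the PEDOT-S library. Fdps, which makes farnesyl diphosphate, was at 23.8 CPM in the PEDOT-S library, 17.96 CPM in the IKVAV PA library and 15.7 CPM in the PDL library. Its ratio of 0.60 (0.49 to 0.70) was past 1.5-fold but its lower bound was not. Pmvk, the kinase that acts between Mvk and Mvd, departed from them, at 109 CPM in the PEDOT-S library, 86.7 CPM in the IKVAV PA library and 103 CPM in the PDL library. The ratio of PEDOT-S over PDL for Pmvk was only 0.09 (0.05 to 0.14), and IKVAV PA lay below PDL by a log2 ratio of -0.24 (-0.29 to -0.20).

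The sterol genes carry farnesyl diphosphate through squalene and lanosterol to cholesterol, and all 11 were highest in the PEDOT-S library. Ebp, the isomerase that moves a double bond in the sterol ring, was the only one of the 11 called higher. It was at 16.8 CPM in the PEDOT-S library, 9.64 CPM in the IKVAV PA library and 10.2 CPM in the PDL library. The counts behind these levels were 1314 in the PEDOT-S library, 1201 in the IKVAV PA library and 815 in the PDL library. The log2 ratio was 0.71 (0.59 to 0.84) over PDL, or 1.64-fold, and 0.80 (0.69 to 0.91) over IKVAV PA, or 1.74-fold. The ratio over IKVAV PA was the largest of the 33 genes between the scaffolds, and 0.403% of all genes compared had a larger one. The IKVAV PA and PDL libraries did not differ beyond counting error for Ebp, with a ratio of -0.09 (-0.22 to 0.04). Ebp is the least abundant of the sterol genes in CPM and its call against PDL was lost under 4 other ways of scaling or correction, given under the processing alternatives. Its identifier is ENSMUSG00000031168, at chrX:8185329-8193512 on the minus strand.

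Sqle, the squalene epoxidase and a slow step of the pathway, was at 532 CPM in the PEDOT-S library, 422 CPM in the IKVAV PA library and 420.0 CPM in the PDL library. Cyp51, the lanosterol demethylase, was at 589 CPM in the PEDOT-S library, 435 CPM in the IKVAV PA library and 448 CPM in the PDL library. Msmo1, a sterol methyl oxidase, was at 279 CPM in the PEDOT-S library, 205 CPM in the IKVAV PA library and 209 CPM in the PDL library. These 3 genes share a pattern in which the PEDOT-S library stood apart and the other libraries were close. Their ratios of PEDOT-S over PDL were 0.34 (0.32 to 0.36), 0.39 (0.37 to 0.41) and 0.42 (0.39 to 0.44), in the same order. Sc5d, a sterol desaturase, followed the pattern at 192 CPM in the PEDOT-S library, 142 CPM in the IKVAV PA library and 149 CPM in the PDL library. So did Hsd17b7, a keto reductase of the demethylation steps, at 152 CPM in the PEDOT-S library, 115 CPM in the IKVAV PA library and 121 CPM in the PDL library. Between the scaffolds, Cyp51, Msmo1, Sc5d and Hsd17b7 had ratios between 0.40 and 0.44, all past the 25% bound.

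In 4 sterol genes the IKVAV PA library lay between the others, clear of counting error. Lss, which closes squalene epoxide to lanosterol, was at 249 CPM in the PEDOT-S library, 203 CPM in the IKVAV PA library and 185 CPM in the PDL library. Tm7sf2, a sterol reductase, was at 78.8 CPM in the PEDOT-S library, 64.7 CPM in the IKVAV PA library and 52.6 CPM in the PDL library. Nsdhl, a dehydrogenase of the demethylation steps, was at 165 CPM in the PEDOT-S library, 126 CPM in the IKVAV PA library and 118 CPM in the PDL library. Dhcr7, which makes a last reduction on the way to cholesterol, completes the set, at 172 CPM in the PEDOT-S library, 145 CPM in the IKVAV PA library and 129 CPM in the PDL library. Their ratios of IKVAV PA over PDL ran between 0.09 for Nsdhl and 0.30 for Tm7sf2, the highest of the 33 genes in that comparison, with intervals clear of 0. Fdft1, the squalene synthase that opens the sterol branch, had the smallest ratio of the sterol genes in PEDOT-S over PDL, 0.08 (0.06 to 0.11). It was at 275 CPM in the PEDOT-S library, 242 CPM in the IKVAV PA library and 260 CPM in the PDL library.

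**Figure D3:**
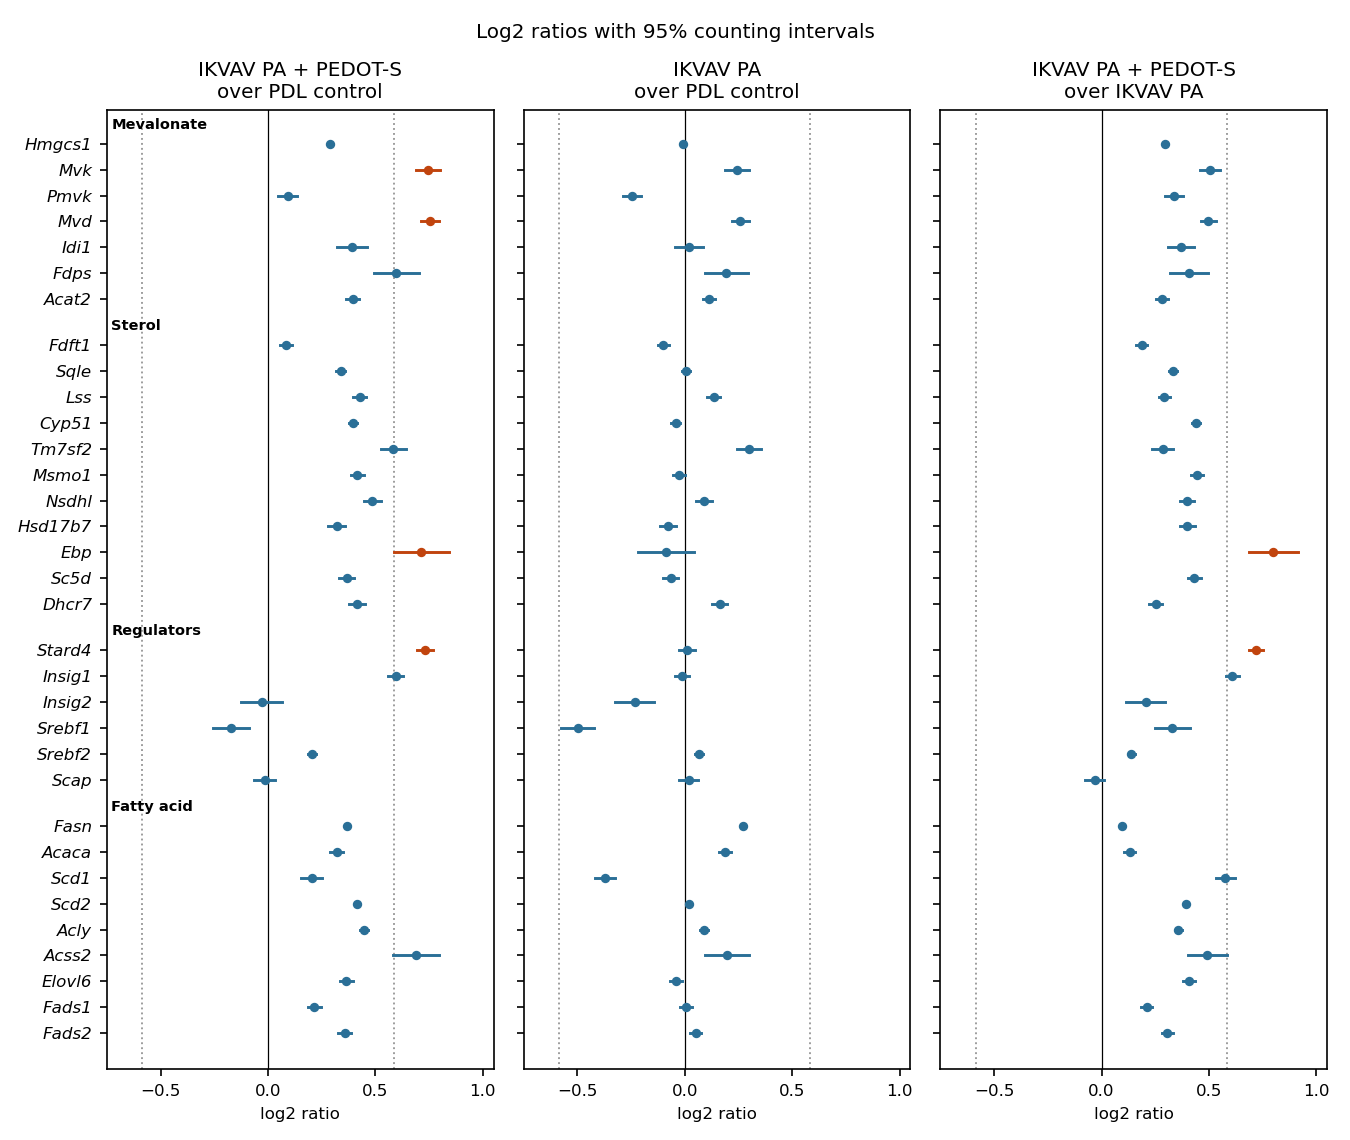
Log2 ratio of each of the 33 genes (points) with its 95% counting interval (bars) in 3 comparisons, with dotted lines at 1.5-fold and called genes in orange. In PEDOT-S over PDL, Mvk, Mvd, Ebp and Stard4 lie wholly beyond the dotted line, in PEDOT-S over IKVAV PA, Ebp and Stard4 do, and in IKVAV PA over PDL no gene does.

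Against PDL, the intervals of 3 of the 6 regulators lay above 0 with PEDOT-S, beside 28.6% of all genes, and that of 1 lay below, beside 28.5%. Against IKVAV PA, 5 of the 6 lay above 0, beside 31.4% of all genes, and 0 below, beside 28.5%, with a median ratio of 0.27. Stard4, a protein that carries cholesterol between membranes, rose in the PEDOT-S library against both others. It was at 207 CPM in the PEDOT-S library, 126 CPM in the IKVAV PA library and 125 CPM in the PDL library. Its log2 ratio was 0.73 (0.70 to 0.77) over PDL, or 1.66-fold, and 0.72 (0.69 to 0.75) over IKVAV PA, or 1.65-fold. Its levels in both libraries without the additive differed by no more than counting error, with a ratio of 0.01 (-0.02 to 0.05). Stard4 (ENSMUSG00000024378) kept both calls under every other scaling factor and filter tried at the 1.5-fold bound.

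Insig1, the retention protein that SREBPs themselves induce, showed the same pattern. It was at 229 CPM in the PEDOT-S library, 150 CPM in the IKVAV PA library and 152 CPM in the PDL library. Its ratios were 0.59 (0.56 to 0.63) over PDL and 0.61 (0.58 to 0.64) over IKVAV PA, above 1.5-fold at the estimate and just short of the call at the lower bound. Insig2, its paralog, did not show it. Insig2 was at 22.2 CPM in the PEDOT-S library, 19.3 CPM in the IKVAV PA library and 22.7 CPM in the PDL library, with a ratio of -0.03 (-0.12 to 0.07) for PEDOT-S over PDL. Its IKVAV PA level was the lowest of the 3, with ratios of 0.21 (0.12 to 0.30) for PEDOT-S over IKVAV PA and -0.23 (-0.32 to -0.15) for IKVAV PA over PDL.

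Of the factors and their escort, Srebf2 was at 678 CPM in the PEDOT-S library, 617 CPM in the IKVAV PA library and 589 CPM in the PDL library, a ratio of 0.20 (0.19 to 0.22) over PDL. Scap was level, at 87.3 CPM in the PEDOT-S library, 89.3 CPM in the IKVAV PA library and 88.3 CPM in the PDL library, and none of its 3 intervals lay clear of 0. Srebf1 was highest in PDL, at 27.9 CPM in the PEDOT-S library, 22.2 CPM in the IKVAV PA library and 31.4 CPM in the PDL library. The interval for Srebf1 lay below 0 in PEDOT-S over PDL, at -0.17 (-0.25 to -0.09), the only such case among the 33 genes, and in IKVAV PA over PDL the ratio was -0.50 (-0.58 to -0.42), the lowest of the 33 genes in that comparison. In PEDOT-S over IKVAV PA it was 0.33 (0.25 to 0.41). The counts do not separate the transcripts of Srebf1 that start at different promoters, and no protein or cut form was measured.

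The fatty acid genes were the most abundant group, with a summed level of 5232 CPM in the PEDOT-S library, 4287 CPM in the IKVAV PA library and 4012 CPM in the PDL library. All 9 were highest in the PEDOT-S library and none was called in any comparison. Of all genes, 0.339% to 0.54% were called higher and 2.02% to 3.75% lower, depending on the comparison. Acly, which splits citrate to give cytosolic acetyl-CoA, was at 682 CPM in the PEDOT-S library, 533 CPM in the IKVAV PA library and 501 CPM in the PDL library, with a ratio of 0.44 (0.43 to 0.46) over PDL. Acss2, which makes acetyl-CoA out of acetate, was at 24.3 CPM in the PEDOT-S library, 17.3 CPM in the IKVAV PA library and 15.1 CPM in the PDL library. Its ratio over PDL was 0.69 (0.58 to 0.79), or 1.61-fold, and its lower bound fell just short of 1.5-fold.

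Acaca, the carboxylase that commits acetyl-CoA to fatty acids, was at 267 CPM in the PEDOT-S library, 244 CPM in the IKVAV PA library and 214 CPM in the PDL library. Fasn, the fatty acid synthase, was at 1277 CPM in the PEDOT-S library, 1195 CPM in the IKVAV PA library and 990.5 CPM in the PDL library. Acaca and Fasn differed from most of the set in that the larger step lay between IKVAV PA and PDL, as it did narrowly for Tm7sf2. The larger step lay there for Srebf1 and Insig2 as well, but with IKVAV PA below PDL. For Fasn the ratio was 0.27 (0.26 to 0.28) for IKVAV PA over PDL and 0.10 (0.08 to 0.11) between the scaffolds, and for Acaca the values were 0.19 (0.16 to 0.22) and 0.13 (0.11 to 0.16).

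Scd2, the main stearoyl-CoA desaturase of mouse brain, was the most abundant of the 33 genes in CPM, at 2068 CPM in the PEDOT-S library, 1573 CPM in the IKVAV PA library and 1550.4 CPM in the PDL library. Scd1, a related desaturase, was at 96.7 CPM in the PEDOT-S library, 64.9 CPM in the IKVAV PA library and 84.0 CPM in the PDL library. Scd1 and Srebf1 were thus both lowest in the IKVAV PA library, Scd1 with a ratio of -0.37 (-0.42 to -0.33) for IKVAV PA over PDL and 0.58 (0.53 to 0.62) for PEDOT-S over IKVAV PA. Elovl6, an elongase, was at 274 CPM in the PEDOT-S library, 207 CPM in the IKVAV PA library and 213 CPM in the PDL library. Fads1 and Fads2 are the desaturases of polyunsaturated fatty acids. Fads1 was at 253 CPM in the PEDOT-S library, 219 CPM in the IKVAV PA library and 218 CPM in the PDL library, and Fads2 was at 290.3 CPM in the PEDOT-S library, 235 CPM in the IKVAV PA library and 227 CPM in the PDL library. The ratio of PEDOT-S over PDL was 0.36 for both Elovl6 and Fads2 and 0.22 for Fads1.

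Ratios between genes of one library do not depend on how libraries are scaled, and 7 pairs were compared in this way. Insig1 over Insig2, per kilobase of exon, was 11.6 in the PEDOT-S library, 8.76 in the IKVAV PA library and 7.52 in the PDL library. The log2 difference was 0.62 (0.52 to 0.72) for PEDOT-S over PDL and 0.40 (0.31 to 0.50) between the scaffolds, the widest shift of the 7 pairs in both. Srebf2 over Srebf1 was 19.1 in the PEDOT-S library, 21.8 in the IKVAV PA library and 14.7 in the PDL library, and Scd2 over Scd1 was 19.1 in the PEDOT-S library, 21.7 in the IKVAV PA library and 16.5 in the PDL library. Both pairs were thus highest in the IKVAV PA library, with log2 differences of IKVAV PA over PDL of 0.56 (0.49 to 0.64) and 0.39 (0.35 to 0.44). Sqle over Fdft1, consecutive enzymes at the squalene branch, was 1.47 in the PEDOT-S library, 1.33 in the IKVAV PA library and 1.23 in the PDL library, a log2 difference of 0.26 (0.22 to 0.29) for PEDOT-S over PDL. Acly over Acss2 was lower with PEDOT-S, with a log2 difference of -0.24 (-0.35 to -0.14) against PDL. The pairs Fasn over Acaca, at 0.05 (0.02 to 0.08), and Fads2 over Fads1, at 0.14 (0.10 to 0.18), differed least between PEDOT-S and PDL.

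**Figure D4:**
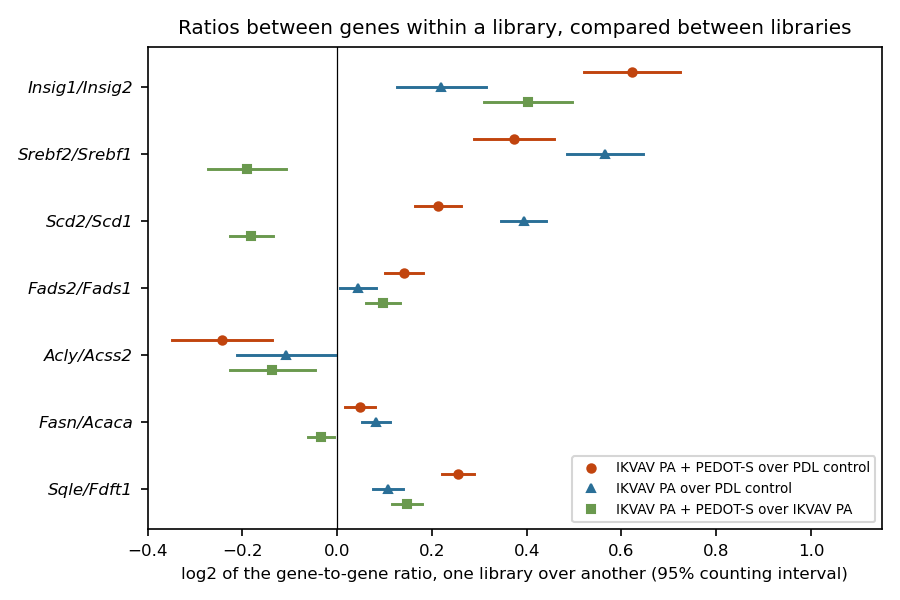
Log2 difference between libraries in the ratio of 2 genes within a library, for 7 pairs, with 95% counting intervals. Insig1 over Insig2 differs most in PEDOT-S over PDL (0.62), whereas Srebf2 over Srebf1 and Scd2 over Scd1 differ most in IKVAV PA over PDL (0.56 and 0.39).

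Per kilobase of exonic length, Scd2 and Hmgcs1 were the highest of the 33 genes in all 3 libraries. In the PEDOT-S library Scd2 was at 379 CPM per kilobase and Hmgcs1 at 356 CPM per kilobase, and 0.303% and 0.317% of the genes compared lay above them. Acss2 was the lowest in every library, at 2.39 CPM per kilobase with PEDOT-S, 1.70 with IKVAV PA and 1.48 with PDL. Ebp, Insig2, Fdps and Srebf1 made up the rest of the low end, with 42.5% to 51.8% of the genes compared above them in the PEDOT-S library. By this order Mvd ranked 9 of 33 in the PEDOT-S library, 10 in the IKVAV PA library and 12 in the PDL library. Exonic length here joins every annotated exon of a gene, so a gene whose transcripts use different exons reads low on this scale. For Acss2 the joined length is 10163 bases and the longest single transcript 3609 bases.

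Other genes of the same pathways, chosen by function, made up 55 genes in 4 lists, of which 54 passed the filter. In PEDOT-S over PDL none of the 54 was called higher, against 0.447% of all genes, and 1 was called lower, against 3.75%. The medians were 0.04 for isoprenoid use, 0.03 for SREBP control, 0.07 for cholesterol handling and 0.08 for other fatty acid genes. Intervals lay above 0 for 8 of 11 cholesterol handling, 11 of 19 other fatty acid and 6 of 14 SREBP control genes, against 28.6% of all genes. They lay below 0 for 2, 4 and 2 of these, in the same order, against 28.5%. In IKVAV PA over PDL none was called in either direction, against 0.54% of all genes called higher and 3.41% called lower. Between the scaffolds none was called either, against 0.339% called higher and 2.02% called lower. At the 25% bound, 2 of 19 other fatty acid genes were higher in PEDOT-S over PDL, against 1.87% of all genes, and 1 lower, against 6.6%. Between the scaffolds 3 of the 19 were higher, against 1.56%, and 1 lower, against 4.83%. There 1 of 14 SREBP control genes was also higher. The gene called lower was Elovl1, an elongase near the filter, at 0.856 CPM in the PEDOT-S library, 1.64 CPM in the IKVAV PA library and 1.83 CPM in the PDL library, with a ratio of -1.08 (-1.54 to -0.67). The 4 medians thus lay closer to the all-gene median of -0.00 than the 0.39 of the 33 genes did.

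Slc25a1, the carrier that exports the citrate used by Acly, had the highest ratio of the 54 in PEDOT-S over PDL, at 166 CPM in the PEDOT-S library, 121 CPM in the IKVAV PA library and 118 CPM in the PDL library. The ratio for Slc25a1 was 0.49 (0.45 to 0.53). Tmem97, a sterol-binding membrane protein, was at 25.2 CPM in the PEDOT-S library, 18.1 CPM in the IKVAV PA library and 19.9 CPM in the PDL library, with ratios of 0.34 (0.25 to 0.44) over PDL and 0.48 (0.40 to 0.57) over IKVAV PA. Acsl4, an acyl-CoA synthetase, was at 288 CPM in the PEDOT-S library, 214 CPM in the IKVAV PA library and 243 CPM in the PDL library. Hsd17b12, a reductase of fatty acid elongation, was at 179 CPM in the PEDOT-S library, 137 CPM in the IKVAV PA library and 171 CPM in the PDL library. For both, as for Scd1, the IKVAV PA library was the lowest. Among genes that control SREBPs, the ubiquitin ligase Rnf145 was highest with IKVAV PA, at 86.3 CPM in the PEDOT-S library, 100.3 CPM in the IKVAV PA library and 82.3 CPM in the PDL library. Its ratios were 0.07 (0.02 to 0.12) for PEDOT-S over PDL, -0.22 (-0.26 to -0.17) for PEDOT-S over IKVAV PA and 0.29 (0.24 to 0.33) for IKVAV PA over PDL. Faf2, which helps to draw ubiquitinated proteins out of the endoplasmic reticulum, had 0.03 over PDL and 0.14 (0.09 to 0.19) over IKVAV PA.

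Of 10 genes that use isoprenoids, 2 had intervals above 0 in PEDOT-S over PDL, against 28.6% of all genes, and 1 below, against 28.5%. In IKVAV PA over PDL 4 lay above, against 28.1%, and 2 below, against 28.9%. Between the scaffolds 3 lay above, against 31.4%, and 2 below, against 28.5%. The farnesyltransferase subunit Fnta had a ratio of PEDOT-S over PDL of 0.29 (0.22 to 0.36). Nus1, of dolichol synthesis, had 0.09 (0.05 to 0.13) over PDL and 0.16 (0.13 to 0.20) over IKVAV PA. Coq2, of coenzyme Q synthesis, was highest with IKVAV PA, with ratios of 0.01 (-0.09 to 0.11) for PEDOT-S over PDL, -0.24 (-0.32 to -0.15) for PEDOT-S over IKVAV PA and 0.25 (0.16 to 0.33) for IKVAV PA over PDL. Ggps1, which makes geranylgeranyl diphosphate, had 0.01 (-0.06 to 0.08) over PDL and 0.13 (0.06 to 0.19) over IKVAV PA. Among genes that handle cholesterol once it is made, the lysosomal carrier Npc2 had a ratio of 0.25 (0.20 to 0.30). Lbr, a sterol reductase of the nuclear envelope, had 0.14 (0.03 to 0.25), and 0.33 (0.23 to 0.43) over IKVAV PA. Cyp46a1, the neuronal hydroxylase that lets the brain export cholesterol, had -0.14 (-0.22 to -0.07) over PDL and -0.23 (-0.29 to -0.16) over IKVAV PA. Soat1, which esterifies cholesterol for storage, had -0.24 (-0.35 to -0.13) over PDL and -0.00 (-0.11 to 0.10) over IKVAV PA.

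Neuron markers checked the label. The 12 markers, Map2, Tubb3 and Dcx among them, summed to 11160 CPM in the PEDOT-S library, 11424 CPM in the IKVAV PA library and 11114 CPM in the PDL library. None of the 12 was called in any comparison, against 0.339% to 0.54% of all genes called higher and 2.02% to 3.75% called lower. Other cell types were present at low levels that differed between libraries. In bulk RNA, fewer cells of a type and less RNA per cell cannot be told apart.

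Most markers of oligodendrocytes, which make myelin, had their highest level in the PEDOT-S library. The 13 markers summed to 109 CPM in the PEDOT-S library, 74.3 CPM in the IKVAV PA library and 62.4 CPM in the PDL library. Of 11 compared, 6 were called higher in PEDOT-S over PDL, against 0.447% of all genes, and 3 in IKVAV PA over PDL, against 0.54%. Between the scaffolds 7 were called higher, against 0.339%. Mbp, a myelin protein gene, was at 53.3 CPM in the PEDOT-S library, 33.2 CPM in the IKVAV PA library and 28.3 CPM in the PDL library, and Opalin was at 0 in the PDL library and Aspa at 0 in the IKVAV PA library. Mog, another myelin protein gene, was lower with PEDOT-S than with IKVAV PA, with ratios of -0.11 (-0.26 to 0.05) for PEDOT-S over PDL and -0.42 (-0.56 to -0.29) for PEDOT-S over IKVAV PA. In IKVAV PA over PDL, Ugt8a, which makes a myelin lipid, had a ratio of -0.65 (-0.91 to -0.40). The myelin gene Mag, among the 3 called higher there, had 1.11 (0.77 to 1.51). Against PDL, markers of oligodendrocyte precursors ran the other way. Their sum was 15.9 CPM in the PEDOT-S library, 19.5 CPM in the IKVAV PA library and 62.1 CPM in the PDL library. Of these precursor markers 4 of 6 were called lower in PEDOT-S over PDL, against 3.75% of all genes. In IKVAV PA over PDL 5 of the 6 were called lower, against 3.41%. Between the scaffolds the precursor markers split. There 2, Pdgfra and Cspg4, were called lower, against 2.02%, and 1, Gpr17, was called higher, against 0.339%. The part of these cells in the levels of the 33 genes was not tested.

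Astrocyte markers, 10 of 12 compared, were lower in both scaffold libraries, with a sum of 257 CPM in the PEDOT-S library, 242 CPM in the IKVAV PA library and 407 CPM in the PDL library. Of these 5 were called lower in PEDOT-S over PDL, against 3.75% of all genes, and Gfap higher, against 0.447%. In IKVAV PA over PDL 8 were called lower, against 3.41%, and between the scaffolds 2 were called higher, against 0.339%. The median ratio of the 10 between the scaffolds was 0.40. There 7 intervals lay above 0, against 31.4% of all genes, and 1 below, against 28.5%. Much of each sum was Slc1a2, at 153 CPM in the PEDOT-S library, 161 CPM in the IKVAV PA library and 169 CPM in the PDL library. Gjb6 was at 0 in all 3. Fibroblast and mural markers summed to 27.1 CPM in the PEDOT-S library, 59.4 CPM in the IKVAV PA library and 144 CPM in the PDL library. All 7 compared were called lower in PEDOT-S over PDL, against 3.75% of all genes. Markers of dividing cells summed to 39.4 CPM in the PEDOT-S library, 42.1 CPM in the IKVAV PA library and 127 CPM in the PDL library. All 8 were called lower in both scaffold libraries over PDL, against 3.75% of all genes with PEDOT-S and 3.41% with IKVAV PA. Endothelial markers summed to at most 5.26 CPM and microglia markers to at most 2.70 CPM in any library. The part of these cell types in the results was not tested.

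Some of the 33 genes share sequence with other genes, and the strand setting of the counts is not given in the sources used here. More than 10% of exonic bases lay within another gene for 5 of the 33, or 15.2%, against 13.4% of all genes compared. They were Hmgcs1 (12.1%, with Gm48342), Fdps (26.7%, with Gm43738), Fdft1 (18.3%, with Ctsb), Tm7sf2 (12.1%, with Vps51) and Scap (13.2%, with 5830462I19Rik), and their values are uncertain to that extent. Near copies, at 95% identity over at least 100 bases of the longest transcript, were found for 9 of the 33. For Msmo1 the longest match was only 203 bases, to Taf1d, and 59 other genes matched. The longest were Gm5182 for Acaca, over 6118 bases, and Acat3 for Acat2, over 1477 bases. Gm5182 had 195 counts in the PEDOT-S library, 345 counts in the IKVAV PA library and 188 counts in the PDL library, and Acat3 had 23 counts in the PEDOT-S library, 66 in the IKVAV PA library and 39 in the PDL library. Scd2 matched Scd1 over 623 bases at 95.5% identity, so reads from that stretch could be split between them. The search from the longest Scd1 transcript listed no match, so Scd1 is not among the 9. None of the 4 genes called higher had a near copy or over 10% of shared exonic bases.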

How the data were processed

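The authors deposited raw counts per gene, not normalised, for each of the 3 libraries. The kit was for total RNA per the labels' protocols, whereas the molecule field reads polyA RNA. The submitters' processing notes list the mm10 build and the tools HTSeq 2.0.2, STAR 2.7.5, cutadapt 4.2 and DESeq2 1.14.1. The order of steps, the annotation release and the strand setting were not given in the sources used here. Total counts were 79057998 for IKVAV PA + PEDOT-S, 124425958 for IKVAV PA and 78993105 for PDL.

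Groups came from the library names. GENCODE M21 named 54165 of 54232 identifiers. Genes with at least 1 CPM in at least 1 library were compared. edgeR 4.0.16 (R 4.3.3) gave the trimmed-mean (TMM) factors used for scaling, 0.990 for IKVAV PA + PEDOT-S, 1.00 for IKVAV PA and 1.01 for PDL. Log2 ratios used a prior count of 2. Intervals are exact (Clopper-Pearson) 95% intervals of one count given the sum of both, and those of gene pairs add the variances of 4 log counts. Reads here carry no molecular identifiers and are not independent molecules, so intervals cover counting error alone. The calculation was tested on simulated counts that held counting error alone. That test has no spread between cultures and cannot show how the intervals behave with it. Near copies were found with blastn 2.17.0. Motifs were searched on both strands in the 250 bases before each RefSeq start (GRCm38.p6), and a gene with several windows counted once.

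The 33 genes and the other lists were chosen with earlier results of these data known. The genes named are all 33 and, of each other list, the 4 whose interval lies farthest from no difference in any comparison. A gene that this rule names is not reported here. The alternatives tried were size factors from DESeq2 1.42.0, upper-quartile factors or none, other filters and bounds, libraries thinned to the smallest total, scaling on protein-coding genes, a smaller prior count, means over genes, leaving out genes with shared exons and removing a trend on length and GC content. Factors from all identifiers were an alternative chosen after seeing the data.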

Additional observations from a re-analysis of the deposited data

How the results depend on the processing

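The direction of the member medians for PEDOT-S over PDL and PEDOT-S over IKVAV PA was the same under every alternative run. With upper-quartile factors they were 0.35 and 0.31. The counts of called genes follow the bound. At 2-fold, 0 genes were called in PEDOT-S over PDL and 0 between the scaffolds. At the 25% bound, 21 were higher in PEDOT-S over PDL, 2 lower in IKVAV PA over PDL and 15 higher between the scaffolds. Counting every interval clear of 0, PEDOT-S over PDL had 30 higher (28.6% of all genes) and 1 lower (28.5%), IKVAV PA over PDL had 15 higher (28.1%) and 10 lower (28.9%), and PEDOT-S over IKVAV PA had 32 higher (31.4%). At 1.5-fold, Mvd, Mvk and Stard4 remained called in PEDOT-S over PDL under every other scaling, filter and correction run. Ebp lost that call with total counts, upper-quartile factors, protein-coding genes alone and the length and GC trend removed. Acss2 gained it with DESeq2 factors, with factors from all identifiers and with the trend removed, and Insig1 gained a call between the scaffolds with the DESeq2 and all-identifier factors. Removing the trend left Pmvk without a difference in PEDOT-S over PDL, at -0.00. The median of the 6 regulators in PEDOT-S over PDL was 0.20 without genes that share exons, and their mean was 0.22. The cause of these shifts was not tested.

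No paired analysis was possible because each group has 1 library and the groups share a single replicate number. For the same reason no library was left out. Thinning the libraries to the smallest total moved no call. The spread between cultures is unknown for every value given.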
